A study of Mus musculus with 18 samples.

Results

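Mouse splenic B cells that overexpressed the miR-17~92 cluster (OV) were set against B cells whose cluster was floxed and intact (fl/fl), across every mature miRNA whose normalized counts averaged 10 or more over the 3 B-cell libraries. These were 476 of the 756 miRNAs listed for B cells. The data were 1 small RNA library of each group, so each difference is a description of a pair of libraries, with no replicate and no test. The series has 18 libraries, and the other libraries used here were 1 of B cells with the cluster deleted (d/d), 3 of OV and 3 of fl/fl mouse embryonic fibroblasts (MEF). For all of them the labels give Eu-myc mice as the strain, in which a Myc transgene runs from the immunoglobulin heavy chain enhancer, so the controls carry it too. The series text calls the B cells isogenic, and the labels do not state the construct behind the overexpression, the age of the mice or whether several mice were pooled. RNA received spike-ins, small RNAs were cut from a gel, and the NEBNext small RNA kit was used for the libraries. The OV, fl/fl and d/d B-cell libraries held 10203586, 10612256 and 10573018 reads on listed miRNAs.

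The miR-17~92 cluster is a MYC-activated polycistron, that is, one primary transcript from which the Microprocessor complex of Drosha and Dgcr8 cuts several hairpins and Dicer then cuts the mature miRNAs. It is called oncogenic because its overexpression speeds lymphoma in Eu-myc mice, and B-cell development depends on it. A miRNA finds its targets mostly through its seed, bases 2 to 8 of the mature strand, so miRNAs of other loci with the same seed can act on the same messages. The cluster has close paralogs in miR-106b~25, in an intron of Mcm7, and in the X-linked miR-106a to miR-363.

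The cluster holds 6 hairpins at chr14:115043671-115044506 on the plus strand of GRCm38, within Mir17hg, their non-coding host gene (chr14:115042879-115046727). Their main strands carry 4 seeds, in capitals below, and are shown because the groups differed by seed and by locus. The sequences are those of RefSeq on GRCm38.p6, which matched 428 of the 476 kept miRNAs.
miR-17-5p: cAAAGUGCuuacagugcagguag
miR-20a-5p: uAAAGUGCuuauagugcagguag
miR-18a-5p: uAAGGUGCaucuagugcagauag
miR-19a-3p: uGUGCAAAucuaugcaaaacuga
miR-19b-3p: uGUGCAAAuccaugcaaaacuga
miR-92a-3p: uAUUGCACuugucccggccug
Outside the cluster the miR-17 seed is carried by miR-93-5p and miR-106b-5p of miR-106b~25 and by miR-106a-5p and miR-20b-5p of miR-106a to miR-363.
miR-93-5p: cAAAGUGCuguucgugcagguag
miR-106b-5p: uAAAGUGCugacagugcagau
miR-106a-5p: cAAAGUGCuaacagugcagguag
miR-20b-5p: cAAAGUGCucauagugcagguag
The miR-92a seed is shared by miR-25-3p, miR-363-3p, miR-32-5p and miR-92b-3p, and the miR-18a seed by miR-18b-5p.
miR-25-3p: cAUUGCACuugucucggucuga
miR-363-3p: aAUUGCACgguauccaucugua
miR-32-5p: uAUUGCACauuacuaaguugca
miR-92b-3p: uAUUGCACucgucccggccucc
miR-18b-5p: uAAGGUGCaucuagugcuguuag

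The levels of the cluster followed the labels. The sum of its 12 listed products was 4961768 normalized counts in OV against 1256359 in fl/fl, with 31767 in d/d B cells. OV was 3.95-fold above fl/fl (log2 1.98), while the d/d level was 2.53% of that in fl/fl. The normalized count is the number of reads multiplied by 1 factor per library, which was 1.34, 0.943 and 0.794 in OV, fl/fl and d/d. All other listed miRNAs together came to 8706813 in OV and 8748197 in fl/fl, which is 0.995-fold on this scale. That nearness rests on the library factors, since by reads the other miRNAs took 63.7% in OV and 87.4% in fl/fl. As a share of reads the cluster took 36.3% in OV (95% Wilson interval 36.27% to 36.33%), 12.6% in fl/fl (12.54% to 12.58%) and 0.378% in d/d. These intervals, and all those below, cover counting error only, since reads copied by PCR are not independent molecules.

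MiR-92a-3p made up most of the cluster in both groups. It was at 4199900 normalized counts in OV against 1040010 in fl/fl, 30.7% and 10.4% of all reads, and was the most abundant miRNA of the B cells by the mean of OV and fl/fl. It supplied 84.6% of the cluster's reads in OV and 82.8% in fl/fl. MiR-20a-5p and miR-17-5p, whose known targets include E2f1 and the cell cycle inhibitor Cdkn1a, followed. MiR-20a-5p was at 521927 in OV and 148103 in fl/fl, and supplied 10.5% and 11.8% of the cluster. MiR-17-5p was at 197829 and 56314, or 3.99% and 4.48% of the cluster. MiR-18a-5p was the main strand with the smallest share, 0.0996% in OV and 0.174% in fl/fl.

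All 11 kept members were at least 2-fold higher in OV, beside 6.30% of the 476 kept miRNAs that were at least 2-fold higher and 6.30% at least 2-fold lower. Differences are of log2(normalized count + 1), with a median of 1.84 over the members and 0.02 over all kept miRNAs. The counting interval of every kept member's fold lay wholly above 2. The main strands from miR-17, miR-20a, miR-19b and miR-92a were within a narrow band. MiR-17-5p was 1.81 higher on the log2 scale, miR-20a-5p 1.82, miR-19b-3p 1.80 and miR-92a-3p 2.01. MiR-19a-3p was at 11058 normalized counts in OV against 2634 in fl/fl, with 7.94 in d/d, a log2 difference of 2.07 between OV and fl/fl.

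The miR-18a strands stood below this band. MiR-18a-5p was at 4940, 2186 and 9.53 in OV, fl/fl and d/d, 2.26-fold higher in OV (counting interval 2.14 to 2.38). MiR-18a-3p was at 1693 in OV against 744 in fl/fl, with 0 in d/d, 2.28-fold higher in OV (2.08 to 2.49). In comparison miR-17-5p, from the neighbouring hairpin of the cluster, was 3.51-fold higher (3.48 to 3.55). Both strands of miR-18a thus had intervals that did not meet those of miR-17-5p. The intervals of miR-92a-3p (4.03 to 4.05) and miR-19a-3p (4.02 to 4.38) did not meet it either, and lay above it. The miR-18a strands were under 2-fold when scaled by total reads (log2 differences of 0.73 and 0.74) and in the authors' regularized log values (0.84 and 0.85). Without miR-92a-3p in the sum, miR-18a-5p made up 0.648% of the remaining cluster reads in OV (0.628% to 0.670%) and 1.01% in fl/fl (0.970% to 1.05%).

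**Figure D1:**
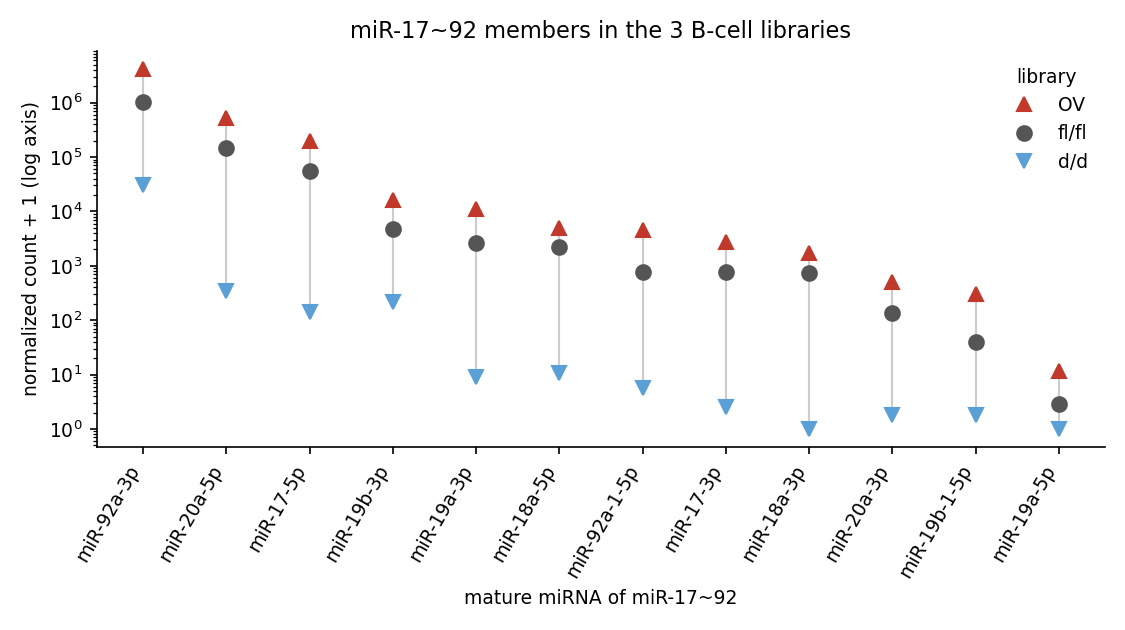
Normalized count + 1 of each of the 12 listed miR-17~92 products, on a log axis, with 1 point for each of the OV, fl/fl and d/d B-cell libraries. Every product is highest in OV, for instance miR-92a-3p at 31033 in d/d and 4199900 in OV, and miR-19a-5p at the low end was under the minimum, with 8, 2 and 0 reads.

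The passenger strands, which are mostly degraded after the main strand enters Argonaute, were compared with the main strand of their own hairpin. In miR-17 the 5p strand held 98.6% of the hairpin's reads in OV and 98.7% in fl/fl. In miR-18a it held 74.5% and 74.6%, and in miR-20a 99.9% in both. The counting intervals of OV and fl/fl overlapped in each of these hairpins, and the log2 difference of the minor strand exceeded that of the major strand by 0.02, 0.01 and 0.08.

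In the last pair of hairpins the passenger strand was the strand with the larger difference. MiR-19b-1-5p was at 303, 39.6 and 0.794 normalized counts in OV, fl/fl and d/d, from 226, 42 and 1 reads. Its difference between OV and fl/fl was 2.90 on the log2 scale, against 1.80 for miR-19b-3p. MiR-92a-1-5p was at 4619 in OV against 775 in fl/fl, with 4.76 in d/d, a log2 difference of 2.57 against 2.01 for miR-92a-3p. The 5p share of the miR-19b-1 hairpin was 1.83% in OV (1.61% to 2.08%) and 0.843% in fl/fl (0.624% to 1.14%), and that of miR-92a-1 was 0.110% (0.106% to 0.114%) and 0.0745% (0.0695% to 0.0797%). The counting intervals of OV and fl/fl did not overlap for either hairpin. The hairpins are printed as RefSeq gives them, with the mature strands in capitals and the 5p strand first.
Mir19b-1: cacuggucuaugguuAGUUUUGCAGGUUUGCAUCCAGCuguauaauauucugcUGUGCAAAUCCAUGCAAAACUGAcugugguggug
Mir92-1: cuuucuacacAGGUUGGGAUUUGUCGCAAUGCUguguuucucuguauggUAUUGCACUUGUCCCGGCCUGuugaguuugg

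Both 3p strands also come, letter for letter, from hairpins of the X-linked miR-106a to miR-363 cluster, at chrX:52741991-52742013 for miR-19b-3p and chrX:52741854-52741874 for miR-92a-3p, on the minus strand. Reads of a shared strand cannot be assigned to one locus. The d/d library, labelled as lacking the chromosome 14 copies, kept 4.70% of the fl/fl level of miR-19b-3p and 2.98% of that of miR-92a-3p, while miR-17-5p and miR-20a-5p, which have no second copy in these sequences, were at 141 and 349 normalized counts there. With the d/d level subtracted, OV was 3.61-fold above fl/fl for miR-19b-3p (3.49-fold before) and 4.13-fold for miR-92a-3p (4.04-fold before). This subtraction takes the X-linked part as the same in every B-cell library. Yet miR-92a-2-5p, from the X-linked miR-92a hairpin, was at 2798, 1783 and 946 normalized counts in OV, fl/fl and d/d. The d/d level thus need not give the X-linked part of the other libraries. By these sequences the 5p strands come from the chromosome 14 copies alone. Their folds were 7.65 for miR-19b-1-5p and 5.96 for miR-92a-1-5p. What part the shared copies have in the difference between strands was not tested.

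The seed family totals show how much of each family's normalized counts the cluster supplied, and targeting itself was not measured. The miR-17 seed family, with 6 members, came to 772435, 255860 and 69111 normalized counts in OV, fl/fl and d/d, and OV was 3.02-fold above fl/fl. The cluster's own 2 members were 3.52-fold higher and the 4 outside members 1.02-fold, so the share from miR-17~92 was 93.2% in OV, against 79.9% in fl/fl and 0.709% in d/d. The miR-92a family came to 4449860 in OV against 1285600 in fl/fl, with 369846 in d/d. It was 3.46-fold higher in OV, with the sum of its outside members again at 1.02-fold. The cluster gave 94.4% of that family in OV and 80.9% in fl/fl. The outside sum was mostly miR-25-3p, at 231584 in OV and 227619 in fl/fl, and its scarcer members differed more. MiR-92b-3p was at 158, 79.2 and 22.2 in OV, fl/fl and d/d, a log2 difference of 0.99 between OV and fl/fl. The log2 difference was 0.31 for miR-32-5p and −0.10 for miR-363-3p.

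The miR-18a family had the smallest excess of the 4. It summed to 6150, 3739 and 1529 in OV, fl/fl and d/d, 1.64-fold higher in OV, and its outside member miR-18b-5p was at 1210, 1553 and 1520. The miR-19 family has no listed member outside the cluster by these sequences, apart from the X-linked copy that gives the same miR-19b-3p. It was 3.75-fold higher in OV, at 27324 against 7292 in fl/fl and 227 in d/d.

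**Figure D2:**
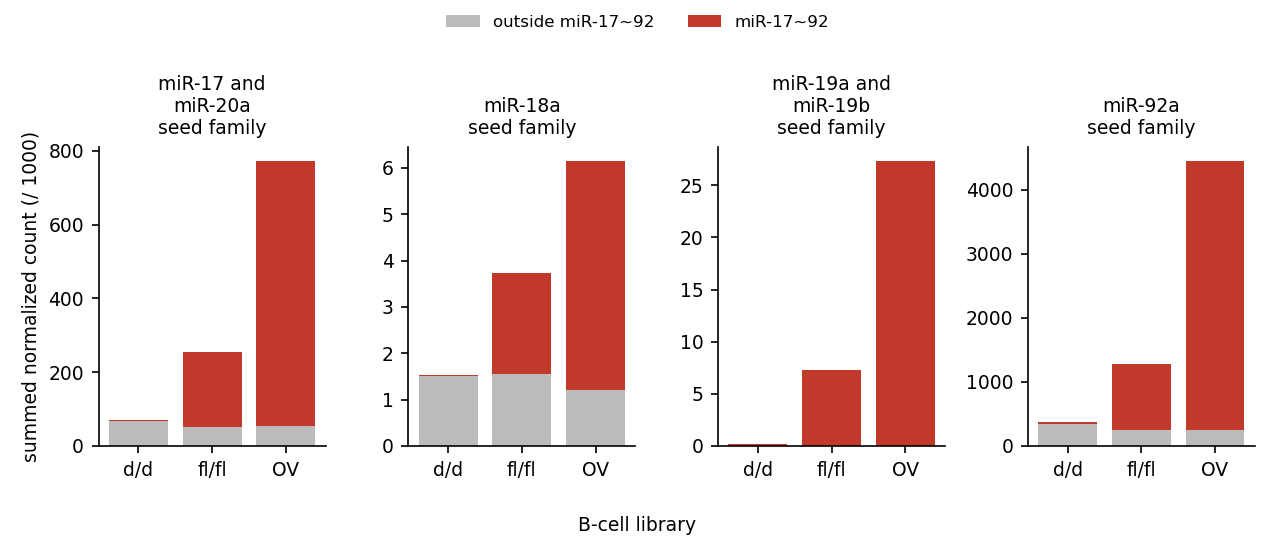
Summed normalized counts, divided by 1000, of the 4 seed families of miR-17~92 in each B-cell library, split into members of the cluster and members of other loci. The strands miR-92a-3p and miR-19b-3p, which X-linked copies also give, are counted whole as members of the cluster. Each panel has its own axis from 0. The OV bars exceed the fl/fl bars through the cluster's part, while the outside part of the miR-17 and miR-92a families is 1.02-fold in OV against fl/fl.

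In sum the paralogous clusters stayed near their fl/fl levels, while single strands differed in both directions. In miR-106b~25, 0 of 6 kept members were past 2-fold, the median was 0.01, and the totals were 285979 in OV against 284979 in fl/fl, with 403289 in d/d. MiR-25-3p, its most abundant strand, was at 231584, 227619 and 320364 in OV, fl/fl and d/d. MiR-93-5p was at 26486, 28748 and 47308 in the same order, and miR-25-5p at 6000, 3974 and 4874, a log2 difference of 0.59 between OV and fl/fl. In miR-106a to miR-363, counted without the strands it shares with miR-17~92, 1 of 7 kept members was past 2-fold and the median was −0.10. That member was miR-18b-3p, lower in OV, at 113 normalized counts in OV against 252 in fl/fl, with 106 in d/d. Its companion miR-92a-2-5p, the passenger strand of the X-linked miR-92a copy, was at 2798, 1783 and 946 in OV, fl/fl and d/d, a log2 difference of 0.65 between OV and fl/fl. MiR-363-5p was at 1307, 2267 and 1455 in the same order, a log2 difference of −0.79. The 10 listed strands of miR-106a to miR-363 summed to 41333 in OV against 39132 in fl/fl, with 34575 in d/d.

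Outside miR-17~92, the OV and fl/fl libraries were close. Of 465 kept miRNAs 19 were at least 2-fold higher in OV and 30 at least 2-fold lower, and 313, or 67.3%, were within 1.5-fold. Most calls came from scarce miRNAs. Among those outside the cluster with a mean of 10 to 100 over the 3 libraries, 11 of 223 were higher and 26 lower. From 100 to 1000 these were 8 and 3 of 122, from 1000 to 10000 they were 0 and 1 of 63, and from 10000 upwards 0 of 57 in either direction. The SD of the log2 differences was 0.81 in the lowest of these bands and 0.32 in the highest. Of all 60 miRNAs past 2-fold, 26 had under 50 reads in both libraries.

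When the counting interval had to lie wholly past 2-fold, 6 outside miRNAs remained as higher and 5 as lower, and 38 did not. The 6 were miR-3058-3p and 5 strands of miR-322 to miR-503, and the 5 were miR-365-3p, miR-3473e, miR-1933-3p, miR-7033-5p and let-7i-3p. If the libraries were scaled by their total reads instead, differences would be lower by up to 0.45, and by less for scarce strands because of the added 1, and the counts over all kept miRNAs would be 16 higher and 85 lower in place of 30 and 30. On that scale the median of all kept miRNAs would be −0.42, and a difference or list median between 0 and 0.45 could turn negative, so each is to be read against the median of all kept miRNAs. Of the kept miRNAs, 12 were under 10 in both OV and fl/fl and passed the minimum through d/d. At the minimum itself, miR-138-5p was just inside with a mean of 10.04 and miR-494-3p just outside with 9.89.

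**Figure D3:**
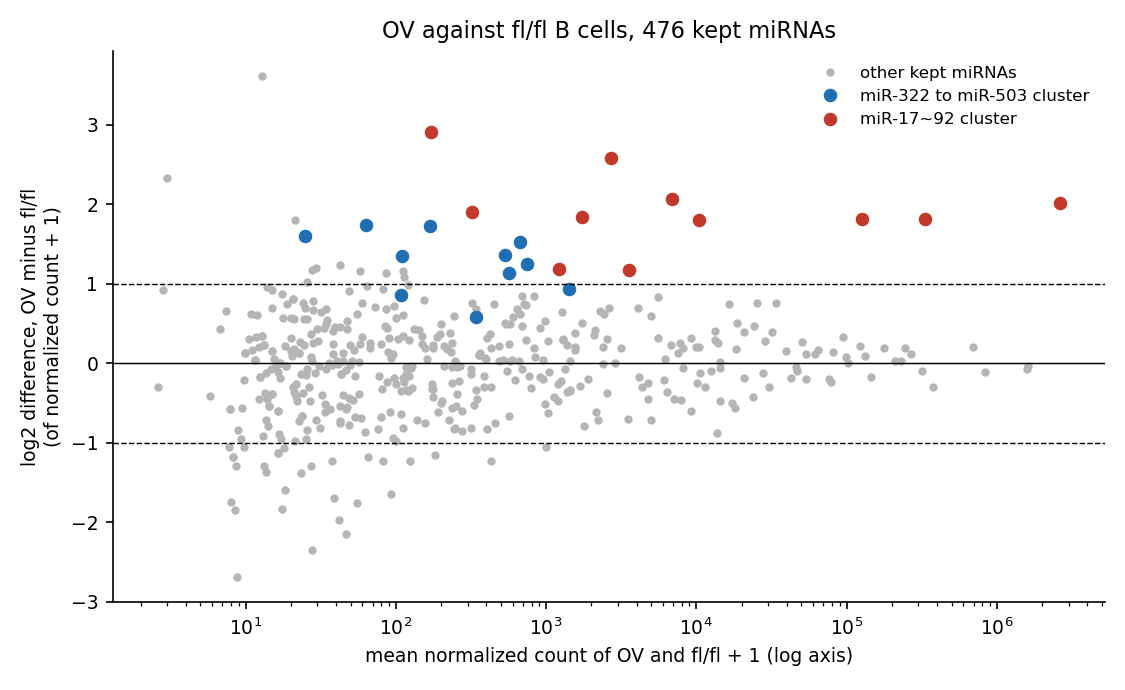
Log2 difference between OV and fl/fl B cells against the mean normalized count of both on a log axis, for the 476 kept miRNAs. Dashed lines mark 2-fold. The miR-17~92 members lie above the upper line at every level, those of miR-322 to miR-503 between 0.58 and 1.73, and the spread of the other miRNAs narrows as the level grows.

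The miR-322 to miR-503 cluster on the X chromosome had the most calls upward of the single clusters and families outside miR-17~92, 8 of 11 kept members with none lower and a median of 1.35, beside 6.30% of all kept miRNAs. Its strands are known from muscle differentiation and cell cycle arrest, and miR-322, the mouse counterpart of human miR-424, shares the miR-15 and miR-16 seed. The sum of the group was 6530 normalized counts in OV against 2939 in fl/fl, with 3395 in d/d. MiR-322-3p was at 994, 346 and 431 in OV, fl/fl and d/d, 2.87-fold higher in OV (2.53 to 3.26). MiR-503-3p was at 259 in OV against 77.3 in fl/fl, with 124 in d/d, 3.34-fold higher (2.57 to 4.39). In both, OV had the highest value and fl/fl the lowest. Scaled by total reads, miR-450a-5p and miR-450b-3p (0.91 each), miR-450b-5p (0.79) and miR-503-5p (0.68) were under 2-fold on the log2 scale, and of the 8 only miR-503-3p was past 2-fold in the authors' regularized log values (1.02).

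MiR-450a-5p was at 761, 295 and 372 in OV, fl/fl and d/d, and miR-450b-5p at 1048, 442 and 447. They were 2.58-fold and 2.37-fold higher in OV. MiR-351-5p, the most abundant strand, was at 1851 in OV against 972 in fl/fl, with 1235 in d/d, a log2 difference of 0.93, and miR-322-5p with 0.86 and miR-542-3p with 0.58 were the other two under 2-fold. The hairpins lie within chrX:53047997-53054349 on the minus strand, and the main strands with their seeds in capitals show that they are not 1 seed family.
miR-322-5p: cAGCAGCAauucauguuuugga
miR-503-5p: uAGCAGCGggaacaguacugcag
miR-351-5p: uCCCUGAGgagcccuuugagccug
miR-450a-5p: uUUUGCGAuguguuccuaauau
miR-450b-5p: uUUUGCAGuauguuccugaaua
miR-542-3p: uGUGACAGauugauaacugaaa
With scaling by total reads the group's median would be 0.91, against −0.42 for all kept miRNAs, and it was 0.78 in the deposited regularized log values, which shrink differences of scarce miRNAs.

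The other strands with a large excess in OV were scarce. MiR-3058-3p had 17, 1 and 10 reads in OV, fl/fl and d/d, a ratio of normalized counts of 24.2 with a counting interval from 3.79 to 1009.5. MiR-335-3p, from the imprinted Mest gene, was at 32.2 in OV against 8.48 in fl/fl, with 7.15 in d/d. MiR-223-5p counts among the 30 higher only because d/d carried it over the minimum, and its 3 reads in OV and 0 in fl/fl allow no fold. Among strands outside miR-17~92 with a mean of at least 100, miR-486a-5p was the only one of the 5 largest differences upward that is not from miR-322 to miR-503.

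The 3 kept erythroid markers were past 2-fold higher in OV, beside 6.30% of all kept miRNAs. They were miR-451a at 37.5, 16.03 and 30.2 in OV, fl/fl and d/d, miR-486a-5p at 153, 67.9 and 123, and miR-486b-5p at 153, 71.6 and 123. The last pair has nearly identical reads and cannot be told apart. All 3 were under 2-fold when scaled by total reads, at log2 differences of 0.74, 0.71 and 0.63, and in the regularized log values, at 0.51, 0.66 and 0.61. The counting intervals of their folds began at 1.24, 1.66 and 1.58. The summed level of the 4 listed erythroid markers was 346 in OV against 170 in fl/fl, with 283 in d/d, and the one not kept, miR-486a-3p, had 2 reads in OV and 15 in fl/fl. In bulk samples more red cells and more of these miRNAs per cell cannot be told apart.

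For the lists of markers of other cells, sums are over all listed members. The 2 endothelial strands of miR-126a summed to 7354, 4172 and 2824 in OV, fl/fl and d/d, with a median difference of 0.61 and none past 2-fold. The mesenchymal list (8 of 10 kept, median 0.10) summed to 2339, 2390 and 9837, the epithelial list (8 of 9 kept, median −0.08) to 9538, 11933 and 12340, and the list of neural, muscle and liver miRNAs (7 of 10 kept, median 0.11) to 13155, 17493 and 2530. Of these 3 lists, miR-129-2-3p alone was past 2-fold, lower in OV from 13 reads in fl/fl to 2. The myeloid marker miR-223 had 4 reads in OV over both strands, 0 in fl/fl and 68 in d/d. What part these cells have in any difference was not tested.

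B-lymphocyte miRNAs were present in both libraries. MiR-142a-3p, found across blood cells, was at 68415 in OV and 61132 in fl/fl, and miR-142a-5p at 72327 and 85053. MiR-150-5p, a marker of mature resting lymphocytes, was low, at 71.0 in OV against 62.2 in fl/fl, with 8.73 in d/d. MiR-155-5p, which activated B cells raise, was at 1068, 597 and 469 in OV, fl/fl and d/d. Of 17 kept lymphocyte strands 1 was past 2-fold higher, beside 6.30% of all kept miRNAs, and the median difference was 0.19.

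In the miR-181 family, which tunes lymphocyte development, all 9 kept strands lay above 0, with a median of 0.70 and 1 past 2-fold. Over all 476 kept miRNAs, 245 lay above 0 and 6.30% were at least 2-fold higher. MiR-181a-5p was at 42896 in OV against 25435 in fl/fl, with 31351 in d/d, and miR-181b-5p at 36283, 27719 and 26940. The 1.69-fold excess of miR-181a-5p had a counting interval of 1.66 to 1.71. The strand past 2-fold, miR-181b-2-3p, had 30 reads in OV and 18 in fl/fl. With total read scaling the family's median would be 0.25, against −0.42 for all kept miRNAs.

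**Figure D4:**
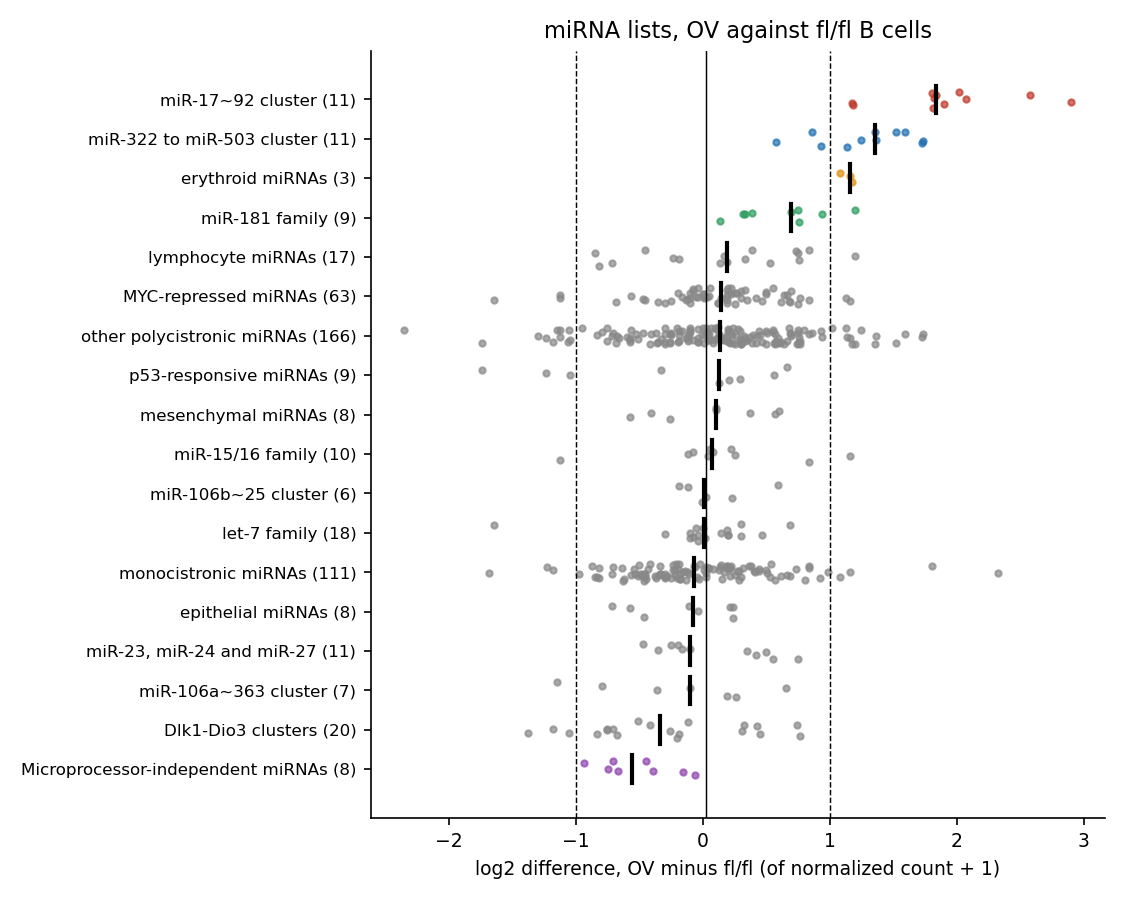
Log2 difference between OV and fl/fl B cells of each kept member of 18 miRNA lists, with the number of members in brackets, the list's median as a black bar, the median of all kept miRNAs as a solid line and 2-fold as dashed lines. The lists of miR-17~92 and of miR-322 to miR-503 lie farthest to the right, and all 8 Microprocessor-independent strands lie left of 0.

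One question of the study was whether the amount of this primary transcript bears on miRNAs cut from other polycistrons, so polycistronic and monocistronic miRNAs were set apart. Of 166 kept strands from other polycistronic loci 13 were higher past 2-fold and 11 lower, with a median of 0.13. Of 111 from monocistronic loci 4 were higher and 3 lower, with a median of −0.07. The shares over all kept miRNAs were 6.30% higher and 6.30% lower. Grouping by coordinates, with a neighbouring hairpin within 10 kb on the same strand, gave medians of 0.13 for 152 strands and −0.08 for 241. Without miR-322 to miR-503 and the Dlk1-Dio3 clusters, 5 of 138 polycistronic strands were higher and 10 lower, with a median of 0.11. Under scaling by total reads the medians became −0.31 for polycistronic and −0.52 for monocistronic strands, so the sign of the former rests on the scaling.

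Strands made without the Microprocessor come from short introns or from capped hairpins at a transcription start. Of the 11 listed, all 8 kept strands lay below 0, beside 231 of all 476 kept miRNAs. None was past 2-fold, and the median was −0.56, or −0.28 in the regularized log values. MiR-320-3p was at 14115, 14763 and 14321 in OV, fl/fl and d/d, a log2 difference of −0.06. MiR-484 was at 5958 in OV against 8154 in fl/fl, with 11661 in d/d, a difference of −0.45. The mirtron strand miR-1981-5p was at 2681, 4372 and 3073, a difference of −0.71, and miR-877-3p at 64.3, 124 and 115, a difference of −0.94. The 11 listed strands summed to 23529, 28449 and 30034 in OV, fl/fl and d/d, with miR-320-3p as its largest part.

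Among p53-responsive miRNAs, 3 of 9 kept strands were at least 2-fold lower in OV and none higher, while the list's median was 0.13. Of all kept miRNAs 6.30% were lower, and 26 of the 223 with a mean from 10 to 100. The 3 belong to the miR-34 and miR-449 family. MiR-34c-5p was at 648 in OV against 1345 in fl/fl, with 5277 in d/d, and fl/fl was 2.07-fold above OV (1.87 to 2.31). OV had the lowest and d/d the highest of the 3 values, and in the regularized log values the difference was −0.60, under 2-fold. MiR-449a-5p was at 21.4, 51.9 and 24.6 in OV, fl/fl and d/d, and miR-34b-5p had 2 reads in OV against 12 in fl/fl, with 48 in d/d. MiR-34b-5p passed the minimum only through d/d, at 2.68, 11.3 and 38.1 normalized counts in OV, fl/fl and d/d. The counting interval of its fl/fl to OV ratio, 0.940 to 38.8, takes in no difference. By contrast miR-34a-5p had 6, 5 and 32 reads, and miR-192-5p, of another seed, was at 14703, 11984 and 6756 in OV, fl/fl and d/d. The members with a reference sequence share the seed in capitals.
miR-34a-5p: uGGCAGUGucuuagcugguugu
miR-34b-5p: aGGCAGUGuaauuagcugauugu
miR-449a-5p: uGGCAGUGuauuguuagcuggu

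The let-7 family, which restrains growth, made up much of both libraries and differed little between them. Its 18 kept strands had a median of 0.01, with none higher past 2-fold and 1 lower, and its 21 listed strands summed to 4578050 in OV and 4606560 in fl/fl. Let-7i-5p was at 1557310 in OV and 1643080 in fl/fl, and let-7f-5p at 1590670 and 1634910. The strand past 2-fold was the passenger let-7i-3p, at 44.2 in OV against 140 in fl/fl, with 11.9 in d/d. MiRNAs that MYC lowers in B-cell tumours, a list of which let-7 is a part, had a median of 0.14 over 63 kept strands, with 2 higher and 3 lower past 2-fold. Over all kept miRNAs 6.30% were past 2-fold in each direction. The total read scaling would turn the sign of both medians, to the side of the median of all kept miRNAs.

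Of the other lists, the 20 kept strands of the imprinted Dlk1-Dio3 clusters had a median of −0.34, with 3 lower past 2-fold and none higher. Among all kept miRNAs 6.30% were lower and 6.30% higher, and 26 of the 223 with a mean from 10 to 100 were lower. Of the 3 lower, miR-136-3p and miR-370-3p passed the minimum only through d/d, with 3 reads in OV against 11 in fl/fl and 4 against 13. Without a minimum the median of the Dlk1-Dio3 strands was −0.19. The 43 listed Dlk1-Dio3 strands summed to 824, 1060 and 3431 in OV, fl/fl and d/d. The miR-15/16 family had 1 higher and 1 lower of 10 with a median of 0.07, miR-23, miR-24 and miR-27 had none past 2-fold of 11 with a median of −0.10, and miR-183, miR-96 and miR-182 none of 3 with a median of −0.04. Of the 3 kept strands of miR-221 and miR-222, miR-221-5p was lower, with 3 reads against 10, and the median was 0.30. MiR-221-5p passed the minimum only through d/d, at 4.02, 9.43 and 141 normalized counts in OV, fl/fl and d/d. The counting interval of its OV to fl/fl fold, 0.0754 to 1.66, takes in no difference. The 2 kept strands of the Sfmbt2 intron cluster differed by 0.75 and 0.17.

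The largest differences downward were also of scarce strands. MiR-511-5p, from an intron of the macrophage mannose receptor gene Mrc1, had 1 read in OV and 15 in fl/fl, a ratio of normalized counts of 10.6 in favour of fl/fl (counting interval 1.62 to 444). MiR-365-3p was at 8.04 in OV against 45.3 in fl/fl, with 34.1 in d/d. MiR-1933-3p was at 16.1, 66.0 and 73.8 in OV, fl/fl and d/d, and miR-7033-5p at 24.1, 83.9 and 7.94. At a mean of at least 100, miR-8114 was at 256 in OV against 602 in fl/fl, with 236 in d/d, and miR-505-5p at 73.7, 174 and 202. MiR-103-3p, an abundant regulator of insulin signalling, was at 9699, 17758 and 23106 in OV, fl/fl and d/d, a log2 difference of −0.87.

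The fl/fl library served both B-cell comparisons, so a value that was off in fl/fl would move both. Deletion against fl/fl had more calls than overexpression, with 16.2% of kept miRNAs at least 2-fold higher and 18.1% at least 2-fold lower in d/d. In the groups above, the median in d/d minus fl/fl was 0.23 for miR-322 to miR-503, −0.14 for miR-181, −0.21 for the Microprocessor-independent strands, 0.54 for miR-106b~25 and 1.80 for Dlk1-Dio3. Beside these stood 1.35, 0.70, −0.56, 0.01 and −0.34 in OV minus fl/fl. The minimum is a mean that includes d/d, so scarce strands that are high in d/d pass it more readily. Of the 43 listed Dlk1-Dio3 strands 20 were kept, and all 20 were at least 2-fold higher in d/d.

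The same pair of genotypes was measured in MEF, in 3 libraries each, in a table normalized separately. There the cluster summed to 422223 ± 38196 normalized counts in OV and 79554 ± 15704 in fl/fl (SD, n = 3), 5.36-fold by mean log2, and OV1, OV2 and OV4 at 384076 to 460467 did not overlap the fl/fl libraries at 67778 to 97384. With spike-in scaling this was 5.89-fold. The cluster took 2.21% of normalized counts in OV and 0.409% in fl/fl MEF, against 36.3% and 12.6% of reads in B cells. At least 2-fold higher were 10.9% of the 640 kept MEF miRNAs, and 8.59% were at least 2-fold lower. Single libraries of the same MEF group differed by at least 2-fold in 3.44% to 17.3% of kept miRNAs, a spread for which the B cells have no counterpart.

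Member by member, miR-18a was among the least raised in both cell types. In MEF miR-18a-5p differed by 1.44 ± 0.33 and miR-18a-3p by 1.44 ± 0.07 (SE, n = 3), against 1.18 and 1.19 in B cells, while miR-19a-3p, at 1.32 ± 0.10 in MEF, was at 2.07 in B cells. MiR-92a-3p was at 2.47 ± 0.20 in MEF and 2.01 in B cells. The passengers miR-19b-1-5p and miR-92a-1-5p were at 1.92 ± 0.36 and 1.93 ± 0.26 in MEF, and at 2.90 and 2.57 in B cells. Differences between the cell types were not tested.

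Outside the cluster, the differences in B cells were little related to those in MEF. Over 393 miRNAs kept in both, Pearson's r was 0.07 and Spearman's rho 0.08, as a description of points that share their libraries. Of these 393, 15 were at least 2-fold higher and 22 at least 2-fold lower in B cells, against 18 and 19 in MEF. Past 2-fold in the same direction were miR-503-5p, miR-486a-5p and miR-486b-5p upward and miR-298-3p downward, and the miR-486 pair cannot be told apart. Past 2-fold in opposite directions were miR-132-5p (1.02 in B cells and −1.26 in MEF), miR-129-2-3p (−1.85 and 1.59) and miR-3473e (−2.14 and 1.63). MiR-503-5p differed by 1.13 in B cells and by 1.10 ± 0.15 in MEF, and miR-486a-5p by 1.16 and by 1.32 ± 0.31. The miR-322 to miR-503 group as a whole had a median of 0.41 in MEF against 1.35 in B cells. The X-linked miR-106a-5p and miR-20b-5p were the reverse case, with 1.68 ± 0.22 and 1.98 ± 0.22 in MEF and 0.19 and 0.26 in B cells. Their sequences differ from those of miR-17-5p and miR-20a-5p in few bases, and no source used here names the counting tool, so how reads were split between these strands is uncertain.

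**Figure D5:**
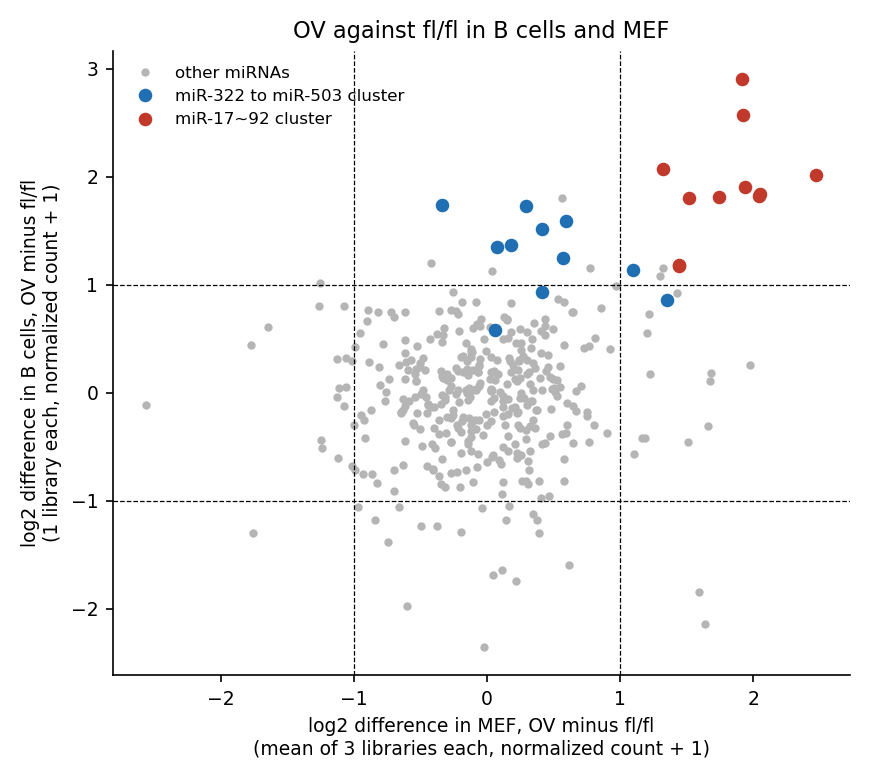
Log2 difference between OV and fl/fl in B cells (vertical axis, 1 library each) against that in MEF (horizontal axis, mean of 3 libraries each) for miRNAs kept in both sets, with 2-fold as dashed lines. The miR-17~92 members lie in the upper right corner, while miR-322 to miR-503 lies higher on the B-cell axis than on the MEF axis and the other miRNAs form a round cloud, with r of 0.07 outside the cluster.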

How the data were processed

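Mature miRNAs of B cells (1 library per group) and of MEF (3 per group) were taken from 3 deposited tables. Their values are a signal, the deposited read count per mature miRNA divided by a size factor; DESeq2 is named, without a version, per the submitters' processing notes. No source used here gives the aligner, the counter, the annotation or the build, or says whether spike-ins set the B-cell factors. Regularized log (rlog) values, on a log2 scale per the file headers, are deposited beside them and were used as an alternative. The OV and fl/fl MEF columns show their group but not their sample, and 48 value columns were not used.

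In B cells 100% of values were whole multiples of 1 step per library, within 0.0001, and gave back whole reads. Kept were miRNAs with a mean of at least 10. Differences are of log2(normalized count + 1), a call is at least 2-fold, and log2 of low values is pulled towards 0 by the 1. Counting intervals are 95% and exact for ratios, Wilson for shares; a count of 0 allows up to 3 counts. No test was made, since the groups have 1 library. Steps were tested on simulated data. Python 3.11.15, pandas 2.3.3, numpy 2.4.6, scipy 1.17.1, matplotlib 3.10.9, and edgeR 4.0.16 in R 4.3.3 for trimmed-mean (TMM) factors were used.

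Named miRNAs are all of miR-17~92, its paralogs and seed relatives, the 10 largest differences each way, the 5 largest each way with a mean of at least 100, the 10 most abundant, and up to 4 of the most abundant per list. Others named in the report were chosen after their values were seen, as members of a list, as the few past 2-fold in it, or for their level in MEF. Members and lists were chosen with earlier results of these data known.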

Additional observations from a re-analysis of the deposited data

Results flagged for a closer look

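MiR-129-2-3p and miR-3473e stood out among the named miRNAs because OV was past 2-fold below fl/fl in B cells, while every OV library of MEF lay above every fl/fl library. MiR-129-2-3p, of a neural family, differed by −1.85 on the log2 scale in B cells, from 2 reads in OV and 13 in fl/fl, and by 1.59 ± 0.32 in MEF. MiR-3473e differed by −2.14 in B cells, from 12 reads in OV and 79 in fl/fl, and by 1.63 ± 0.27 in MEF. The difference between the cell types was not tested.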

How the results depend on the processing

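The design had 1 B-cell library per group, so no replicate could be left out there. No paired analysis was possible because B cells have 1 library per group and no result comes from a test. Main counts were 30 higher and 30 lower. With scaling by total reads on listed miRNAs they were 16 and 85, the cluster total differed by log2 1.53 (1.98 as reported), its median by 1.39 and the median of all kept miRNAs by −0.42, with −0.31 for polycistronic and −0.52 for monocistronic lists. Scaling without miR-17~92 gave a cluster total of 1.99, re-centring on the median 1.96 and edgeR's TMM 1.98, which all moved by more than the counting interval. Without a minimum the counts were 90 and 93, with a minimum mean of 100 they were 19 and 4, with the shrunken rlog values 10 and 1 (and a cluster median of 1.31), at 1.5-fold 82 and 81, and at 4-fold 6 and 3. Pseudocounts and collapsed entries left both counts within 1.5-fold. In MEF the cluster total differed by log2 2.42, by 2.56 with spike-in scaling, and by 2.32 to 2.58 without 1 library. No named miRNA past 2-fold turned its sign, and 11 of the 40 stayed past 2-fold under every scaling, pseudocount and rlog alternative. List medians under each alternative were added after seeing the data. Depth limits the scarce strands: outside the cluster, 38 calls have a counting interval that reaches 2-fold or less.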

Other observations

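Several miRNAs of the B-cell libraries were high or low in d/d while OV and fl/fl lay together. MiR-9-5p was at 11983 normalized counts in OV against 16620 in fl/fl, with 1132 in d/d. MiR-146a-5p, an NF-kappaB target that dampens immune signalling, was at 4020, 5514 and 21957 in OV, fl/fl and d/d, while its relative miR-146b-5p was at 15052, 11402 and 4472. MiR-222-3p was at 234, 166 and 2523. MiR-183-5p was at 133 in OV against 108 in fl/fl, with 1016 in d/d. These were chosen after their values were seen.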
